A study of Mus musculus with 6 samples.

Results

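The genes described here mark the glutamatergic lineages of the cerebellum, and they are 6 of the 19630 genes in the deposited table. They comprise the transcription factor genes *Eomes*, *Lmx1a* and *Tbr1*, the vesicular glutamate transporter genes *Slc17a6* and *Slc17a7*, and *Calb2*, the gene of the calcium-binding protein calretinin. They were selected by gene symbol with the difference between irradiated and control libraries of these same data already known, so that difference is given for them as a description and supports nothing by itself. Transcripts were measured by poly(A) RNA-seq in cells sorted for a cyan fluorescent reporter of *Nes* (Nes-CFP) from cerebellum at postnatal day 5, in mice of genotype Nes-CFP/+ and strain Swiss Webster. The irradiated group, exposed at postnatal day 1, had 3 libraries and the unirradiated control group 3, and both groups carried the reporter. The radiation dose, the irradiated field and the number of animals behind each library were not stated in the labels, so the spread between libraries may be technical in part. Reporter fluorescence can outlast transcription of *Nes*, so the sort may hold recent progeny of Nestin-expressing cells.

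Unipolar brush cells are small excitatory interneurons of the granular layer. They arise from the rhombic lip, the germinal edge that also yields granule neurons and the glutamatergic neurons of the cerebellar nuclei. *Eomes* (also called Tbr2) is the usual marker of unipolar brush cells, *Lmx1a* is a LIM homeobox gene of the rhombic lip and of its unipolar brush progeny, and *Tbr1* is a T-box gene of cerebellar nuclear neurons. *Slc17a6* and *Slc17a7* encode the transporters VGLUT2 and VGLUT1, which load glutamate into synaptic vesicles, and granule neurons turn from the first to the second as they mature. Calretinin is found in a subset of unipolar brush cells and in some other neurons.

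Gene-assigned depth was 30986269 to 37067530 reads per library. Values are given as scaled reads, the authors' gene counts divided by a size factor for each library. *Nes* stood at 13492, 11556 and 7461 scaled reads in irradiated libraries, against 10049, 8389 and 9101 in controls, so the reporter's own gene was high in every library. *Cdkn1a*, the p53-induced gene of the cell cycle inhibitor p21, averaged 1715 ± 212 in irradiated libraries and 308 ± 85.0 in controls (SD, n = 3 each). Of 16674 genes with a mean of at least 10 scaled reads, limma-trend called 9 (0.054%) at the 0.05 level after Benjamini-Hochberg adjustment, and 2 of these (0.012%) were lower after irradiation. In 1473 genes (8.83%) no irradiated library fell within the control range or the reverse, and in 668 (4.01%) every irradiated library lay below every control.

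*Eomes*, the marker of unipolar brush cells, had 302, 451 and 418 scaled reads in irradiated libraries 1, 2 and 3, against 857, 699 and 930 in control libraries 1, 2 and 3. The groups did not overlap, and the irradiated mean of 390 ± 78.0 was 47.1% of the control mean of 829 ± 118 (SD, n = 3 each; log2 fold change -1.09, SE 0.19). In these bulk samples fewer cells of a type and less RNA per cell cannot be told apart.

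*Lmx1a* had 36.5, 67.3 and 65.5 scaled reads in irradiated libraries and 83.9, 129 and 98.7 in control libraries. Again no irradiated library reached a control one, although the gap between 67.3 and 83.9 was narrow. The means were 56.4 ± 17.3 in irradiated libraries and 104 ± 22.9 in controls (SD, n = 3 each; log2 fold change -0.90, SE 0.30). *Lmx1a* is also a gene of the roof plate and its choroid plexus derivative. The choroid transcript *Ttr* stood at 79.2, 39.4 and 2658 in irradiated libraries and 50.4, 189.95 and 13.7 in controls, and *Clic6*, another choroid transcript, at 169.9, 243 and 269 in irradiated libraries and 91.3, 72.8 and 104 in controls. The summed level of the choroid plexus and roof plate list was 3523 to 5327 in irradiated libraries and 2888 to 4892 in controls. *Msx2* made up most of that sum, except in irradiated library 3, where *Ttr* was the largest part. The sum therefore says little of the other genes of the list. The part of choroid plexus or roof plate cells in the values of *Lmx1a* was not tested.

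*Tbr1*, the cerebellar nuclear factor, had the fewest reads of the 6. It had 6, 9 and 10 reads in irradiated libraries and 12, 12 and 21 in control libraries, which scale to 6.25, 9.32 and 10.1 against 12.6, 11.8 and 18.0. The groups did not overlap, with 10 reads in the highest irradiated library and 12 in the lowest controls. Its spread was no larger than counting alone gives, with an SD of 2.03 and a counting SD of 2.96 scaled reads in irradiated libraries, and 3.39 and 3.67 in controls. The irradiated to control ratio of summed reads was 0.597, with an exact Clopper-Pearson interval at 95% of 0.351 to 0.994 that covers counting error only. *Tbr1* met the minimum of 10 scaled reads through its control mean of 14.1, since its irradiated mean was 8.55.

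**Figure D1:**
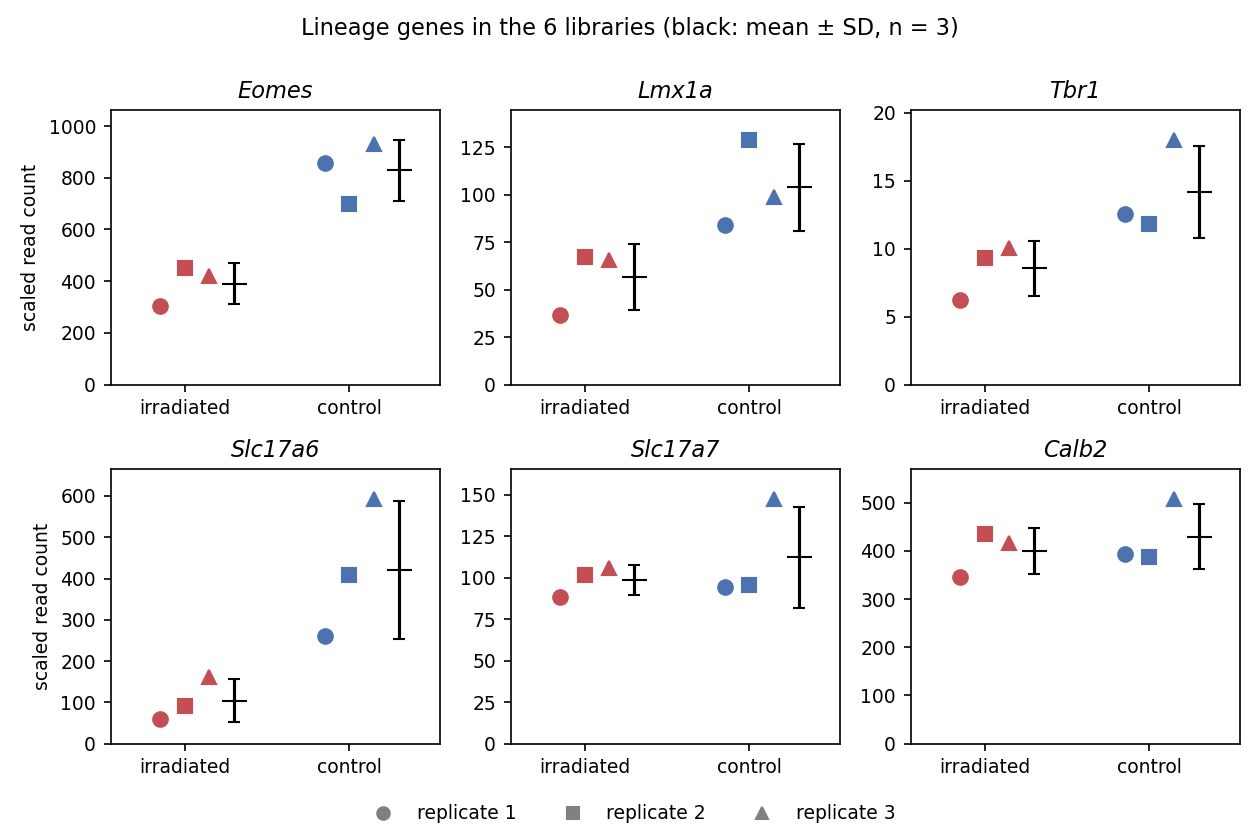
Scaled read count (y axis, from 0) of the 6 lineage genes in the 3 irradiated and 3 control libraries, with the symbol shape giving the replicate number and black bars the mean ± SD. The irradiated points of *Eomes*, *Lmx1a*, *Tbr1* and *Slc17a6* lie below all their control points, while those of *Slc17a7* and *Calb2* overlap.

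*Slc17a6*, the VGLUT2 gene, differed most among the 6. It had 60.5, 91.2 and 161 scaled reads in irradiated libraries, against 260, 409 and 593 in controls. The groups did not overlap, yet both were widely spread, with the highest library of each group more than 2-fold above the lowest. The irradiated mean of 104 ± 51.7 was 24.8% of the control mean of 421 ± 167 (SD, n = 3 each; log2 fold change -2.04, SE 0.38). Only 5 of the 16674 genes had a lower fitted fold change, whereas *Eomes* ranked 46th from the lowest. These ranks come from the contrast known when the genes were chosen and support nothing by themselves.

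*Slc17a7*, the VGLUT1 gene, had overlapping groups. It had 88.6, 102 and 106 scaled reads in irradiated libraries and 94.4, 95.5 and 148 in controls. Control library 3 alone lay apart. The log2 fold change was -0.16 (SE 0.24). Taken per kilobase of exon within each library, *Slc17a6* stood at 0.681, 0.897 and 1.52 times *Slc17a7* in irradiated libraries, and at 2.75, 4.28 and 4.01 times in control libraries. This ratio of VGLUT2 to VGLUT1 transcripts restates the difference of *Slc17a6* beside the overlapping groups of *Slc17a7*, and is no separate result. The remaining member of the family, the VGLUT3 gene *Slc17a8*, lay the other way, without overlap, with 69.8, 50.8 and 54.4 scaled reads in irradiated libraries and 39.9, 48.2 and 29.2 in controls. It did not pass (limma adjusted p = 0.99986; log2 fold change 0.58, SE 0.28).

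*Calb2* overlapped between the groups as well. It had 346, 435 and 417 scaled reads in irradiated libraries and 394.5, 387 and 508 in controls, with means of 399 ± 47.1 in irradiated libraries and 430 ± 68.0 in controls (SD, n = 3 each; log2 fold change -0.10, SE 0.17). The ratio of *Eomes* to *Calb2* per kilobase was 0.366, 0.434 and 0.421 in irradiated libraries and 0.912, 0.758 and 0.768 in controls. It restates the difference of *Eomes* in the same way.

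In all, 4 of the 6 genes lay lower in every irradiated library than in every control and 2 overlapped, where 4.01% of all genes tested lay lower in that way. Because this contrast was known when the genes were chosen, nothing is read from that count or from the calls and p-values that follow. None of the 6 was among the 9 genes that limma called, and 3 of them (*Eomes*, *Lmx1a* and *Slc17a6*) had an unadjusted p below 0.05, as did 751 genes in all. DESeq2 on recovered reads called 2, *Eomes* and *Slc17a6*, among 104 genes. With the replicate number as a block, limma called 1, *Slc17a6*, among 25 genes, and edgeR called the same gene among 8. The edgeR fit without the block called none of the 6 and 8 genes in all.

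Same-numbered libraries were also set against each other, since their deviations from the group means correlated across genes. The labels state no pairing, and the source of that likeness was not tested. *Slc17a6* differed by nearly the same amount in each pair, with log2 differences of -2.09, -2.16 and -1.87 for numbers 1, 2 and 3. Its control level went with the level of the irradiated library of the same number. *Eomes* differed by -1.50, -0.63 and -1.15, *Lmx1a* by -1.18, -0.93 and -0.58, and *Tbr1* by -0.91, -0.31 and -0.78, so these were negative in each pair but uneven. For these genes and *Slc17a6* the groups did not overlap, so any pairing of the libraries gives a negative difference. The sign in each pair restates the group difference and is no separate result. *Slc17a7* gave -0.0908, 0.0876 and -0.48, and *Calb2* gave -0.19, 0.17 and -0.28, with the sign turned in pair 2 for both.

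**Figure D2:**
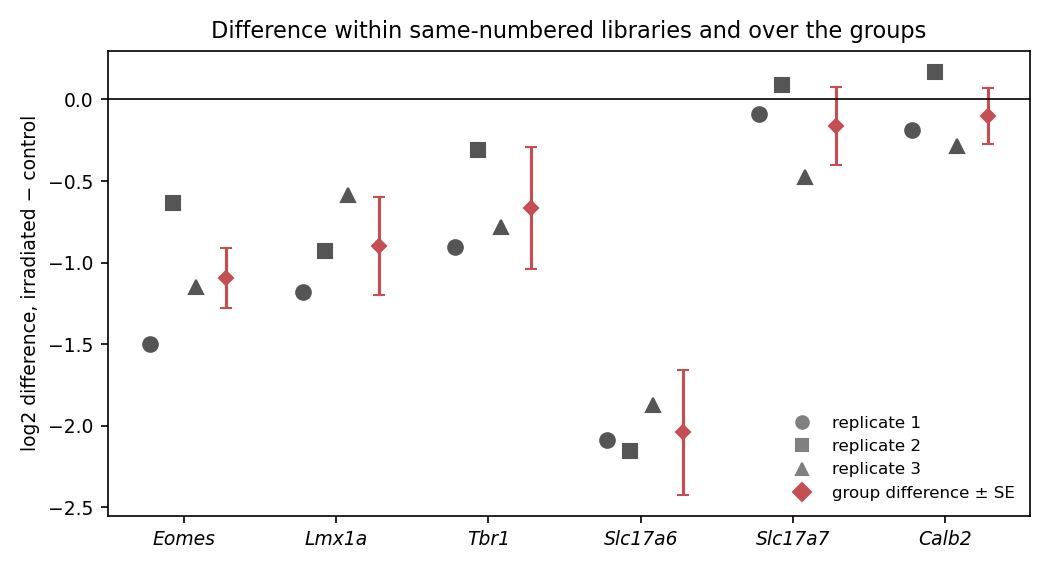
Log2 difference (y axis), irradiated minus control, for each of the 3 same-numbered pairs (grey symbols) and over the groups (red diamond, ± SE) for each lineage gene. The 3 pairs of *Slc17a6* lie between -2.16 and -1.87, while those of *Slc17a7* and *Calb2* lie on both sides of 0.

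Sex-linked transcripts moved with part of this spread. *Ddx3y*, a Y-linked gene, stood at 1404, 1893 and 3916 scaled reads in irradiated libraries 1, 2 and 3 and at 144, 806 and 2058 in the controls, the same order as *Slc17a6* within each group. *Xist*, expressed from the inactive X, stood at 30165, 21073 and 26.2 in irradiated libraries and at 31250, 85481 and 32870 in controls. When the mean of 4 Y-linked genes entered the fit, the log2 fold change was -2.94 for *Slc17a6*, -1.05 for *Tbr1*, -0.53 for *Slc17a7* and -0.34 for *Calb2*, each farther below 0 than without it. *Eomes* stood at -1.27 and *Lmx1a* at -1.16 in that fit, also farther below 0 than without the Y-linked genes. *Slc17a6* was then 1 of 28 genes called by limma, a call from which nothing is read, since the gene was chosen with the contrast known.

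The levels of the 6 genes were ordered by scaled reads per kilobase of merged exons. In irradiated libraries the order was *Calb2* (229 ± 27.0), *Eomes* (94.0 ± 18.8), *Slc17a6* (19.3 ± 9.57), *Slc17a7* (18.3 ± 1.66), *Lmx1a* (16.6 ± 5.10) and *Tbr1* (1.56 ± 0.369; SD, n = 3 each). In control libraries it was *Calb2* (247 ± 39.0), *Eomes* (199 ± 28.5), *Slc17a6* (78.0 ± 30.9), *Lmx1a* (30.6 ± 6.75), *Slc17a7* (20.9 ± 5.64) and *Tbr1* (2.58 ± 0.617). The libraries of *Calb2* and *Eomes* did not overlap in irradiated samples and overlapped in controls. Those of *Lmx1a* and *Slc17a7* overlapped in both groups, and after irradiation *Slc17a6* overlapped both as well. Over all 6 libraries *Calb2* ranked above 64.2% of annotated genes by level per kilobase, *Eomes* above 54.4%, *Slc17a6* above 38.1%, *Lmx1a* above 30.9%, *Slc17a7* above 29.0% and *Tbr1* above 6.32%. The spread of *Eomes* and *Slc17a6* between libraries of a group exceeded counting error, with SDs of 78.0 and 51.7 in irradiated libraries beside counting SDs of 20.03 and 10.3.

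**Figure D3:**
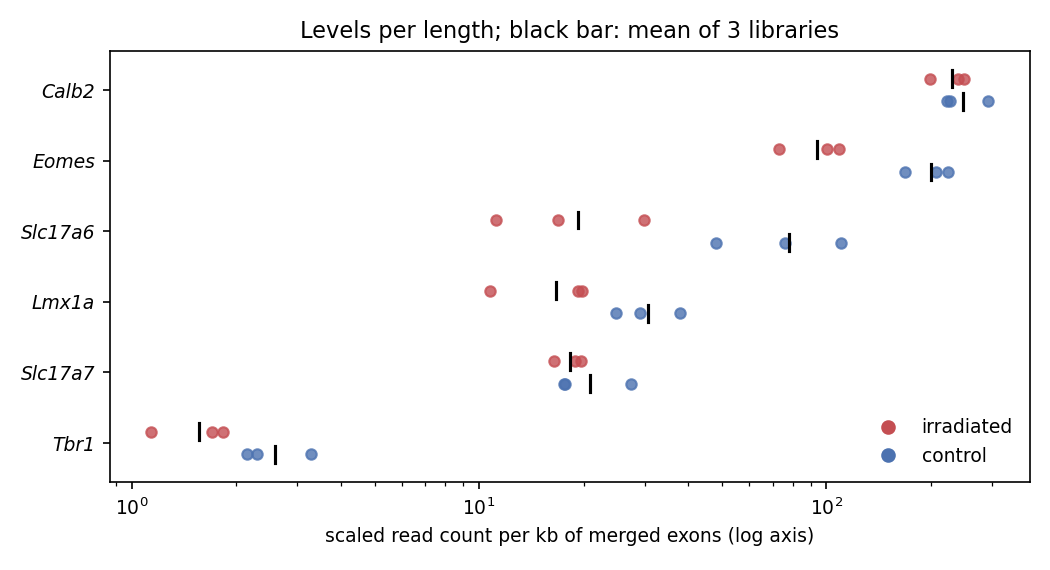
Scaled reads per kilobase of merged exon length (x axis, log scale) of each lineage gene in irradiated (red) and control (blue) libraries, with black bars at group means. *Calb2* is highest, with means of 229 in irradiated and 247 in control libraries, and *Tbr1* lowest, with 1.56 in irradiated and 2.58 in control libraries.

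All 6 are protein-coding genes, placed here by GENCODE release M21 on GRCm38. *Eomes* (ENSMUSG00000032446.14) lies on chromosome 9 from 118478212 to 118486132, *Lmx1a* (ENSMUSG00000026686.14) on chromosome 1 from 167689237 to 167848741, and *Tbr1* (ENSMUSG00000035033.15) on chromosome 2 from 61802930 to 61814114. *Slc17a6* (ENSMUSG00000030500.5) and *Slc17a7* (ENSMUSG00000070570.4) lie on chromosome 7, from 51622006 to 51671119 and from 45163949 to 45176142. These are on the plus strand, and *Calb2* (ENSMUSG00000003657.8) is on the minus strand of chromosome 8 from 110137502 to 110168210. *Slc17a6* overlaps 1 other annotated gene on its own strand, *Gm45072*, and *Slc17a7* overlaps the miRNA gene *Mir7055* on its own strand. Reads of genes that share a strand cannot be told apart by strand, and the part of these overlaps in the counts was not tested. *Eomes* overlaps 1 annotated antisense gene, whose reads cannot be told apart from its own because the strandedness of counting was not stated in the labels.

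Promoter windows of the 250 bases before the RefSeq start (GRCm38.p6) were found for 5 of the 6 genes, *Slc17a6* having 2 annotated starts, and *Calb2* was not matched. They are shown for the 4 genes whose irradiated libraries all lay below the controls. Capitals mark TAATTA, a core bound by many homeodomain proteins including LIM homeobox factors, and all windows are on the plus strand, 5′ to 3′.
*Eomes*, chr9:118477939-118478188: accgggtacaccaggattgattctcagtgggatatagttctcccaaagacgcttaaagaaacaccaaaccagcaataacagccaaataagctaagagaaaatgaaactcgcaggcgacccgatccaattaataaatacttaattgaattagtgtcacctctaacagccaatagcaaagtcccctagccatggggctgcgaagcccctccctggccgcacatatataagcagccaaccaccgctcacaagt
*Lmx1a*, chr1:167689308-167689557: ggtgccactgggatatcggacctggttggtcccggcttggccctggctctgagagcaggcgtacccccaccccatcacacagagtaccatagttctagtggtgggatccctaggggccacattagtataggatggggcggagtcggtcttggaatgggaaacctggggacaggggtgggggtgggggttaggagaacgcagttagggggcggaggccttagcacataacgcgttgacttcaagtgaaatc
*Slc17a6* first start, chr7:51621580-51621829: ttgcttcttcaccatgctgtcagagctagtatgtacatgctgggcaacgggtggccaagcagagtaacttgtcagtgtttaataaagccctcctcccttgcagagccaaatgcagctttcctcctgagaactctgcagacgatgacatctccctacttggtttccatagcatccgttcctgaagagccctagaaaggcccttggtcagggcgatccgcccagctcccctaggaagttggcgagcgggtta
*Slc17a6* second start, chr7:51624387-51624636: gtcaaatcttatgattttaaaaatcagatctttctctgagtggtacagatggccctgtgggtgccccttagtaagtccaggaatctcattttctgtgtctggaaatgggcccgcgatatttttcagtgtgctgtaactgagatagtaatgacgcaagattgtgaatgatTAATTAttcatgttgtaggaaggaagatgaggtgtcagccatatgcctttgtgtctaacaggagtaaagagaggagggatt
*Tbr1*, chr2:61804203-61804452: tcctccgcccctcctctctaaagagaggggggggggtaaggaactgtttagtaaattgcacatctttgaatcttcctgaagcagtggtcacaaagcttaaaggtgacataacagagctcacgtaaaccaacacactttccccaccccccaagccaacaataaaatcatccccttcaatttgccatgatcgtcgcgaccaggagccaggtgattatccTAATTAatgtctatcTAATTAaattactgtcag

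TAATTA began 33 and 18 bases before the start of *Tbr1* and 81 bases before the second start of *Slc17a6*, and it was absent from the windows of *Eomes*, *Lmx1a* and *Slc17a7*. It reads the same on both strands, and 4.84% of 32851 promoter windows of the same length hold it. The T-box half-site GGTGTGA (or TCACACC on the other strand) was in none of the members' 6 windows and is in 3.33% of all. The E-box CAGCTG, also a palindrome, was in none of the 6 and is in 13.0% of all. The *Eomes* window held 8 CpG dinucleotides, that of *Lmx1a* 9, that of *Tbr1* 5, those of *Slc17a6* 7 and 3, and that of *Slc17a7* 9, around the median of 6 over all windows. A match is a description of the letters and shows no binding.

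Other genes of the lineage were read from 19 lists of related genes. Of their 155 genes with enough reads none passed limma over all genes, and 23 had an unadjusted limma p below 0.05. DESeq2 called 5 of them, edgeR none, and limma with the replicate block 2. Over all 16674 genes tested, limma called 9 and 751 had an unadjusted limma p below 0.05. DESeq2 called 104 of all genes, edgeR 8, and limma with the replicate block 25. The lists were written with earlier results of these data known, so nothing is read from these counts. Among 9 further unipolar brush cell genes, 3 were fitted higher and 6 lower (median log2 fold change -0.0994, beside -0.0028 over all genes tested). None passed limma and 3 had an unadjusted p below 0.05, while DESeq2 called 1. That gene was *Grp*, encoding gastrin-releasing peptide, with 104, 141 and 101 scaled reads in irradiated libraries against 325, 219 and 204 in controls (log2 fold change -1.09, SE 0.24; limma adjusted p = 0.311; DESeq2 adjusted p = 0.00462).

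Within that list *Dgkb*, a diacylglycerol kinase gene, had 402, 376 and 424 in irradiated libraries and 436, 496 and 582 in controls. The groups did not overlap, and the gene did not pass (limma adjusted p = 0.99986). It was 1 of 3 genes of the list that lay lower without overlap, beside 4.01% of all genes tested. The phospholipase genes differed in sign, with *Plcb1* at 878 ± 128 in irradiated libraries and 682 ± 86.4 in controls, and *Plcb4*, with the most reads of the list, at 1395 ± 189 in irradiated libraries and 1524 ± 406 in controls. *Otx2*, a homeobox gene of the rhombic lip, stood at 843 ± 244 in irradiated libraries and 712 ± 66.2 in controls. *Lmx1b*, the nearest relative of *Lmx1a*, had 13.1 ± 3.28 scaled reads in irradiated libraries and 13.7 ± 0.947 in controls. *Dgkg* stood at 24.7 ± 6.69 in irradiated libraries and 17.8 ± 4.33 in controls.

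In the T-box and LIM homeobox families 7 of 8 genes tested were lower in the fit (median -0.19) and none passed limma. Of these, *Lhx1* (log2 fold change -0.064), *Tbx18* (-0.042) and *Lhx3* (-0.021) lay near 0. *Tbx3*, a T-box repressor gene, had 52.1, 99.4 and 103 scaled reads in irradiated libraries against 148, 170 and 221 in controls, without overlap, and *Tbx2*, its close relative, had 39.6, 42.5 and 57.5 in irradiated libraries against 61.9, 68.9 and 91.8 in controls, also without overlap (limma adjusted p = 0.529 for *Tbx3* and 0.99986 for *Tbx2*). These 2 were the only tested genes of the list without overlap, beside 4.01% of all genes tested that lay lower in that way. *Isl1*, with too few reads to be tested, lay higher without overlap, with 22 summed reads in irradiated libraries and 2 in controls. *Lhx1*, with the most reads of that list, stood at 1528 ± 594 in irradiated libraries and 1548 ± 390 in controls.

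Genes of the rhombic lip and its early progeny were mostly fitted higher: 8 of 12 had a higher fitted level (median 0.17) and none passed. The 4 fitted lower were *Neurod2* (log2 fold change -0.34), *Meis1* (-0.15), *Barhl1* (-0.0826) and *Nhlh2* (-0.0752). *Atoh1*, the rhombic lip and granule progenitor factor, had 283, 483 and 681 scaled reads in irradiated libraries and 209, 144 and 324 in controls, with overlap (limma adjusted p = 0.837). *Olig3*, of hindbrain progenitors, had 19.8, 31.1 and 50.4 in irradiated libraries and 6.30, 1.97 and 10.3 in controls, without overlap (limma adjusted p = 0.342). Its summed reads were few, 99 in irradiated libraries and 20 in controls. *Meis2* had 137, 142 and 182 in irradiated libraries and 126, 68.9 and 70.4 in controls, without overlap (limma adjusted p = 0.837). These 2 were the only genes of the list without overlap, beside 8.83% of all genes tested in either direction. *Pax6*, with the most reads of the list, stood at 11189 ± 751 in irradiated libraries and 10959 ± 211 in controls.

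Cerebellar nuclear genes also had higher fitted levels in 8 of 10 (median 0.18; none passed), with *Reln* at 6127 ± 1801 in irradiated libraries and 4987 ± 1245 in controls. *Lhx9*, a factor of nuclear neurons, was 1 of the 2 lower ones and scarce, at 4.17, 11.4 and 8.06 scaled reads in irradiated libraries and 10.5, 20.7 and 24.9 in controls, with overlap (limma adjusted p = 0.99986).

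Genes for glutamate handling and glutamate receptors had 11 of 18 lower in the fit (median -0.11; none passed), led in read number by the glial transporter gene *Slc1a3* at 199170 ± 49432 in irradiated libraries and 219190 ± 33323 in controls. Synaptic vesicle genes were evenly divided, 6 higher and 6 lower (median -0.0059; none passed), with *Cplx2* at 8607 ± 2182 in irradiated libraries and 8347 ± 2042 in controls. All 10 pan-neuronal genes had a higher fitted level, by a median of 0.0848, and none passed. *Map2* stood at 22899 ± 1536 in irradiated libraries and 22782 ± 1106 in controls. The summed pan-neuronal level was 48199 to 58153 scaled reads in irradiated libraries and 49034 to 53153 in controls, and these ranges overlapped. Neuronal calcium sensor and buffer genes, the class of *Calb2*, had 6 of 10 higher (median 0.20), none passed, and the gene with the most reads, *Ncald*, stood at 12378 ± 941 in irradiated libraries and 12520 ± 1722 in controls.

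**Figure D4:**
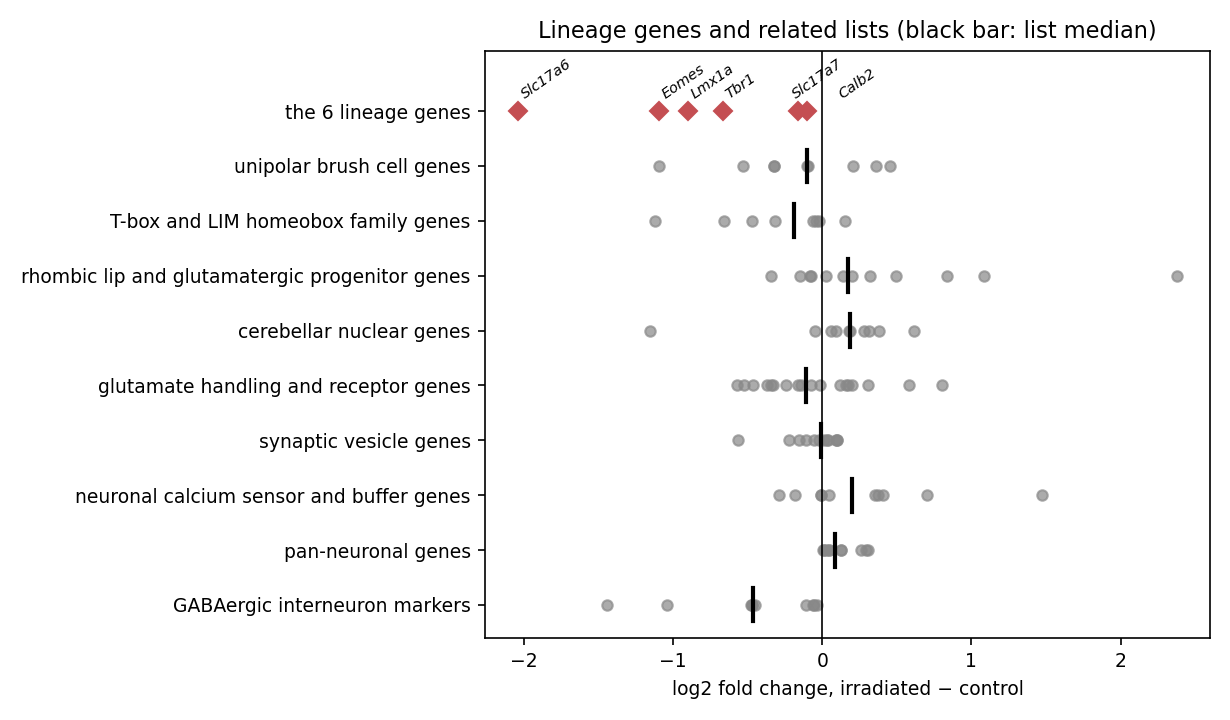
Log2 fold change (x axis), irradiated minus control, of the 6 lineage genes (red diamonds, named) and of the tested genes of 9 related lists (grey points), with black bars at list medians. List medians run from -0.46 for GABAergic interneuron markers to 0.20 for calcium sensor genes, while *Slc17a6* lies at -2.04.

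Markers of other cell types were read beside these values, and their part in the differences of the 6 genes was not tested. GABAergic interneuron markers had a lower fitted level in 10 of 10 (median -0.46) and none passed limma. Their summed level was 18933 to 21448 scaled reads in irradiated libraries and 20075 to 24185 in controls. *Pax2*, which marks interneuron precursors, had 232, 373 and 282 in irradiated libraries against 496, 729 and 588 in controls, and *Slc6a5*, the glycine transporter gene, had 55.3, 42.5 and 33.3 in irradiated libraries against 72.4, 205 and 109.9 in controls. *Pax2* missed the threshold in limma (adjusted p = 0.237) and passed once the replicate number was a block (limma adjusted p = 0.0442) and in DESeq2, where *Slc6a5* passed as well (adjusted p = 0.00166 for *Pax2* and 0.026 for *Slc6a5*).

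Granule neuron markers had 3 of 8 higher (median -0.0254), with *Zic1* at 29065 ± 1032 in irradiated libraries and 30054 ± 693 in controls, and their summed level was 64668 to 69828 in irradiated libraries and 66468 to 72932 in controls. Purkinje markers had 7 of 9 higher (median 0.31), with *Itpr1* at 3576 ± 78.6 in irradiated libraries and 3748 ± 839.5 in controls. Astroglial markers, again led by *Slc1a3*, had 7 of 8 lower (median -0.27), with a summed level of 458730 to 715400 in irradiated libraries and 619670 to 777440 in controls. Oligodendrocyte markers were level, 4 of 8 higher, with *Pdgfra* at 14333 ± 4077 in irradiated libraries and 14706 ± 3624 in controls. Microglial markers had 5 of 6 higher (median 0.28), and the gene with the most reads, *Csf1r*, stood at 687 ± 189 in irradiated libraries and 817 ± 367 in controls. Endothelial markers had 5 of 6 lower (median -0.24), with *Cldn5* at 896 ± 160 in irradiated libraries and 1116 ± 205 in controls. Meningeal markers had 6 of 6 lower (median -0.18), with *Col1a2* at 2928 ± 671 in irradiated libraries and 3098 ± 30.9 in controls. No gene of these lists passed limma.

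*Eomes* also serves T and natural killer cells. Of 10 markers of those cells the pan-leukocyte gene *Ptprc* was analysed, at 46.9, 60.1 and 98.8 scaled reads in irradiated libraries and 27.3, 73.8 and 35.2 in controls, and the other 9 were not analysed here. Choroid plexus and roof plate markers had 5 of 7 higher (median 0.14), led by *Msx2* at 3000.4 ± 684 in irradiated libraries and 3547 ± 1028 in controls. Among caudal hindbrain genes 3 of 9 were in the table and 1 was tested, *Hoxa2*, at 13.6, 12.4 and 23.2 in irradiated libraries and 9.44, 6.89 and 12.9 in controls.

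Patterns over the 6 libraries were compared by the root mean square difference of mean-centred log2 values among 12370 genes whose mean reached 50 scaled reads. Such likeness over 6 libraries is a description, and close matches are found by search among many genes. Nearest to *Eomes* were *Mab21l2* (0.15), the haemoglobin gene *Hba-a1* (0.20) and *Tbx3* (0.22). *Mab21l2* stood at 96.0 ± 11.5 scaled reads in irradiated libraries and 198 ± 39.7 in controls, and *Hba-a1*, a red blood cell transcript, at 99.5 ± 17.9 in irradiated libraries and 201 ± 58.9 in controls; its part in the difference of *Eomes* was not tested. Nearest to *Lmx1a* were *Pax2* (0.18), *Kcnh4* (0.20) and *Arl4d* (0.21), and nearest to *Tbr1* were *Col6a3* (0.0681), *Nxph4* (0.0968) and *Cited4* (0.11). *Slc17a6* had no close match, with *Tnxb* (0.51), *Tbx3* (0.54) and the potassium channel gene *Kcnk9* (0.55) nearest, beside its own SD of 1.26 over the libraries. *Slc17a7* was nearest to *Slc24a3* (0.0673), *Nfia* (0.0673) and *Mnt* (0.0749), and *Calb2* to *Mmp24* (0.0372), *Igsf10* (0.0444) and *Aff3* (0.0475).

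Among the 6 themselves, *Slc17a7* and *Calb2* were the most alike (0.0998), followed by *Eomes* and *Tbr1* (0.25), *Tbr1* and *Slc17a7* (0.28), *Tbr1* and *Calb2* (0.30), *Eomes* and *Lmx1a* (0.32) and *Lmx1a* and *Tbr1* (0.32). *Slc17a6* and *Calb2* were the least alike (1.06). The measure is small for any genes that vary little, and the own SDs were 0.26 for *Slc17a7*, 0.19 for *Calb2* and 0.46 for *Tbr1*. The differences of *Tbr1* from *Slc17a7* and *Calb2* were larger than the own SDs of those genes.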

How the data were processed

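Poly(A) RNA-seq libraries were made from 100 ng of RNA after papain dissociation, sorting and Trizol extraction, per the labels' protocols. HTSeq, DESeq and build mm10 are named in the submitters' processing notes, while the aligner, versions and strandedness were not stated there or in the labels. The deposited signal values are the authors' gene counts scaled by library size factors, with 1 added. After the 1 was taken off, 100% of values were whole multiples of 1 read within 0.001 reads, and the factors (0.953 to 1.16) equal those that the median-of-ratios method gives on these reads. Of the gene IDs 19542 matched GENCODE M21 and 88 did not, and 25 date-like symbols were replaced through the ID.

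limma-trend (limma 3.58.1, R 4.3.3) was first tried on simulated counts without pairing or sex differences, a trial that does not measure its errors in these data. It was run on log2(scaled count + 1) in 16674 genes with a mean of at least 10, two-sided, with Benjamini-Hochberg adjustment at 0.05. Fold changes on this scale understate the change of low genes. edgeR 4.0.16 (TMM) and DESeq2 1.42.0 on recovered reads were alternatives, beside the replicate block, pseudocounts 0.5 and 5, no filter and a minimum of 50, upper-quartile scaling, a Y-linked covariate and leaving out each library. Same-numbered libraries had deviations from their group means that correlated by 0.305, 0.151 and 0.451 across genes, each over 0.1, and other pairs by -0.342 to 0.0503. Same-numbered libraries were therefore treated as pairs in the replicate-block fits and the pair differences. This rests on the data and not on the labels, and the main limma fit had no block.

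The members and lists were chosen with earlier results of these data known. Named genes are the 6 members, *Nes*, *Cdkn1a*, the gene with the highest scaled count in each list (as none passed) and the 3 nearest patterns to each member among annotated genes that are not predicted, mitochondrial or ribosomal. Some genes of the lists are not reported here. Further genes in the text were picked with their values in view. The lists cover unipolar brush cell, rhombic lip, cerebellar nuclear, T-box and LIM homeobox, glutamate, synaptic vesicle, calcium sensor, pan-neuronal, granule, GABAergic, Purkinje, astroglial, oligodendrocyte, microglial, T and natural killer, choroid and roof plate, meningeal, endothelial and caudal hindbrain genes.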

Additional observations from a re-analysis of the deposited data

How the results depend on the processing

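The lower fitted level of *Eomes*, *Lmx1a*, *Tbr1* and *Slc17a6* kept its direction in all alternatives run. There were 16 for each and 15 for *Tbr1*, which has too few reads for a minimum of 50. As their groups did not overlap, leaving out a library or changing the pseudocount or filter could not turn the sign. The contrast was also known when the genes were chosen, so nothing is read from the kept direction. The log2 fold change ran from -1.27 to -0.92 for *Eomes*, from -1.16 to -0.61 for *Lmx1a*, from -1.05 to -0.48 for *Tbr1* and from -2.94 to -1.71 for *Slc17a6*. *Slc17a7* (-0.53 to 0.0506) and *Calb2* (-0.34 to 0.0253) turned positive without control replicate 3.

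Over all genes limma called 7 higher and 2 lower. The counts were 76 and 28 with DESeq2, 18 and 10 with the Y-linked covariate, and 21 and 4 with the replicate block. They were 7 and 1 in edgeR with the replicate block, and 5 and 1 at a minimum mean of 50. Leaving out 1 library gave 1 to 26 higher and 0 to 3 lower, with 29 genes in all without irradiated replicate 1, 3 without irradiated replicate 2, and 2, 1 and 3 without control replicates 1, 2 and 3. Over the listed genes, where limma called none, DESeq2 called 2 higher (*Hpca* and *Clic6*) and 3 lower (*Grp*, *Pax2* and *Slc6a5*). The replicate block gave 1 higher (*Hpca*) and 1 lower (*Pax2*), and leaving out 1 library gave 0 to 1 higher and 0 lower. The causes were not tested. Depth limits *Tbr1* (25 reads in irradiated libraries and 45 in controls) most.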

Other observations

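A pair of listed genes outside the glutamatergic lineages stood higher in every irradiated library than in every control and were called by DESeq2 but not by limma. *Hpca*, encoding the neuronal calcium sensor hippocalcin, had 1373, 2223 and 3937 scaled reads in irradiated libraries against 685, 799 and 1028 in controls (log2 fold change 1.47, SE 0.32; limma adjusted p = 0.315, and 0.0442 with the replicate block; DESeq2 adjusted p = 0.000204). *Clic6*, a chloride channel family gene abundant in choroid plexus, had 169.9, 243 and 269 in irradiated libraries against 91.3, 72.8 and 104 in controls (log2 fold change 1.33, SE 0.24; limma adjusted p = 0.169; DESeq2 adjusted p = 0.000141).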
